A study of Bubalus bubalis with 12 samples.

Results

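The collagen family comprised 43 of the 34037 genes of the deposited expression table of ruminal wall from Italian Mediterranean dairy buffaloes (Bubalus bubalis). Members were the 42 genes named COL, a number, A and a number, together with LOC102400339, a locus that the study treated as COL1A1. The study compared 6 lactating animals fed a total mixed ration (TMR, the control group) with 6 animals that received TMR plus ryegrass green feed as 30% of the diet (the treated group), and asked how green feed changes the rumen transcriptome. Both diets held the same nitrogen and energy, and both groups were multiparous animals already due for slaughter. The treated ration also held less corn silage and alfalfa hay, no soybean meal and more forage relative to concentrate, so the rations differed in more than ryegrass. Each library came from the frozen rumen wall of 1 animal and was a stranded total RNA library. The values were FPKM, counted fragments scaled to gene length and library size, and between 10531541 and 12948372 fragments were counted per animal.

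Collagens are secreted or membrane proteins built from chains that wind into a triple helix, and most are rich in hydroxyproline. Fibrillar collagens (types I, II, III, V, XI, XXIV and XXVII) form the fibres of connective tissue, beneath the epithelium and around muscle. Type IV collagens form the sheet-like network of basement membranes, and types VII, XV, XVII and XVIII lie in the zone that ties an epithelium or vessel to the tissue around it. In the rumen, a stratified squamous epithelium rests on such a basement membrane over a connective tissue core.

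Of the 43 members, 25 had enough reads to be tested, where the lowest maximum over the animals of a gene tested was 38 reads. Another 5 members (COL2A1, COL9A2, COL11A1, COL19A1 and COL25A1) had no read in any animal, 4 had at most 3 reads in every animal, and 9 had more than 3 reads somewhere but stayed under the filter. The highest count among these 9 was 27 reads, for COL21A1. COL2A1 and COL11A1 are the fibrillar chains of cartilage, and the cartilage proteoglycan gene ACAN was also at 0 in every animal.

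The tissue label was checked with marker genes. Summed over 10 measured genes of stratified squamous epithelium, the level lay between 2462 and 5225 FPKM, with KRT5, the keratin of the basal layer, at 1436 FPKM on average in control animals. KRT15, DSG3, DSP and PKP1 averaged between 283 and 782 FPKM there. Other genes of the list were low. KRTDAP had 0 to 5 reads and SBSN 0 to 57 reads per animal, and DSG1 averaged 2.49 FPKM in control animals. The summed smooth muscle markers lay between 16.7 and 50.02 FPKM, and those of fibroblasts, collagens left out, between 15.7 and 192 FPKM. KRT14 was not among the gene names of the table. By these markers epithelial RNA was abundant and muscle RNA was scarce in every animal.

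By level, COL17A1, the transmembrane collagen of the hemidesmosome, led the family at 126 FPKM on average over the 12 animals. COL4A5 followed at 42.9 FPKM, COL3A1 at 32.1 FPKM, LOC102400339 at 21.9 FPKM and COL1A2 at 18.3 FPKM. COL12A1, COL16A1, COL18A1 and COL24A1 lay between 11.1 and 15.2 FPKM. The remaining 16 tested members were at 9.42 FPKM or lower, down to 0.377 FPKM for COL27A1. These are levels per gene length and can be compared between genes.

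**Figure D1:**
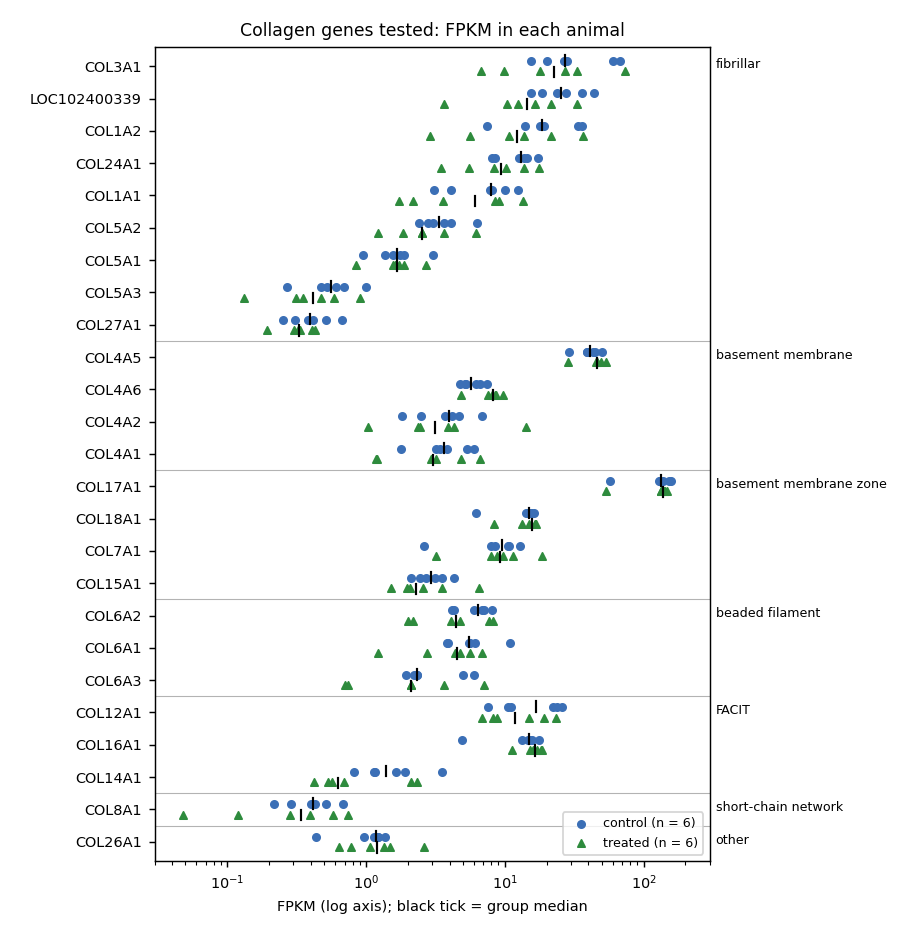
FPKM of the 25 collagen genes tested, on a log axis, with 1 point per animal (circles for 6 control animals, triangles for 6 treated animals) and a tick at each group's median, ordered by class and level. COL17A1 lies highest, the COL4A5 points lie close together between 28.8 and 53.8 FPKM, the COL1A2 points spread from 2.89 to 36.6 FPKM, and no gene has groups that do not overlap.

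Summed over FPKM, the 4 collagens of the basement membrane zone made up 43.4% ± 11.9 (SD, n = 12) of the family's total, and the 12 fibrillar members 27.0% ± 9.7 (SD, n = 12). The type IV basement membrane collagens made up 16.4% ± 2.5 (SD, n = 12). FACIT collagens, which lack fibrils of their own and decorate those of other types, made up 8.90% ± 1.35 (SD, n = 12), and the beaded filament collagens of type VI 3.78% ± 1.62 (SD, n = 12). The fibrillar share ranged from 15.1% to 43.7% between animals and that of the basement membrane zone from 20.9% to 55.7%, whereas the type IV share stayed between 11.6% and 20.01%. These fibrillar values count LOC102400339. Without it the fibrillar members made up 20.7% ± 10.8 (SD, n = 12), from 5.80% to 42.2% between animals. Single genes set much of the other shares. COL17A1 alone made up 35.9% ± 10.3 (SD, n = 12) of the family's total. Most of the type IV share was COL4A5 with COL4A6, at 14.2%, from 10.2% to 18.3% between animals. COL4A1 with COL4A2 made up 2.23%, from 0.70% to 6.32%.

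The family's total differed little between groups. It was 324 FPKM at the lowest, 357 FPKM at the median and 442 FPKM at the highest in control animals, and 312, 339 and 370.0 FPKM in treated animals. The ranges overlapped. The 2 animals with the smallest basement membrane zone sum were control replicate 6, at 69.7 FPKM, and treated replicate 6, at 71.3 FPKM, and every other animal was at 156 FPKM or higher.

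**Figure D2:**
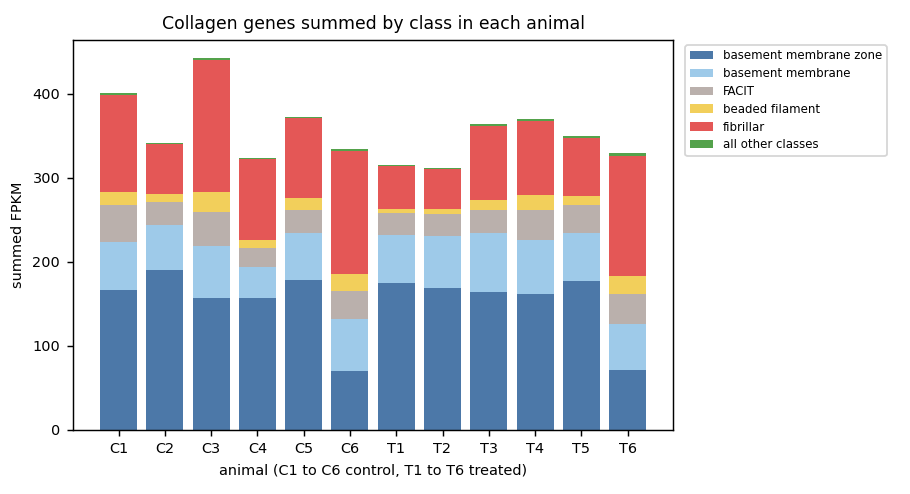
FPKM of the collagen members summed by class (stacked bars, linear axis from 0) in each of the 12 animals, C1 to C6 for control and T1 to T6 for treated. The basement membrane zone part is 69.7 FPKM in control replicate 6 and 71.3 FPKM in treated replicate 6, and the fibrillar part runs from 47.1 FPKM in treated replicate 2 to 158 FPKM in control replicate 3.

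Treated animals were compared with control animals by limma on log2(FPKM + 0.01), fitted on the 12642 genes tested, so that a log2 fold change of a low gene is understated. With Benjamini-Hochberg adjustment over all of these genes limma called 0 genes and 0 members at 0.05, and the smallest adjusted p was 0.9997. At a nominal p below 0.05, the threshold used in the study, 157 genes passed (1.24% of those tested). Of the 25 members, 2 passed, COL4A6 with a higher level in treated animals (0.791% of all genes tested passed in this direction) and LOC102400339 with a lower level (0.451%). The study had already called both genes, in the same directions, from these same animals. LOC102400339 is a member only through the study's name for it, so its pass here is not independent of that call. limma-voom on whole reads also gave 0 genes at an adjusted p below 0.05. Groups that did not overlap were found for 7 of the genes tested (0.0554%) and for 0 members.

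The estimates of 19 of the 25 tested members lay below 0, as did 48.7% of all genes tested, and their median log2 fold change was -0.41, beside 0.01 over all genes. The members' median was -0.17 without treated replicate 1 and -0.13 with a pseudocount of 1 FPKM. Their spread between animals was wide. The median log2 SD within groups was 0.73 for the members and 0.36 for all genes, 23 of the 25 members lay above the latter, and the median standard error of the log2 fold change was 0.37 for the members and 0.20 for all genes. COL4A5 and COL4A6 were the 2 members with a spread below that of the median gene.

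**Figure D3:**
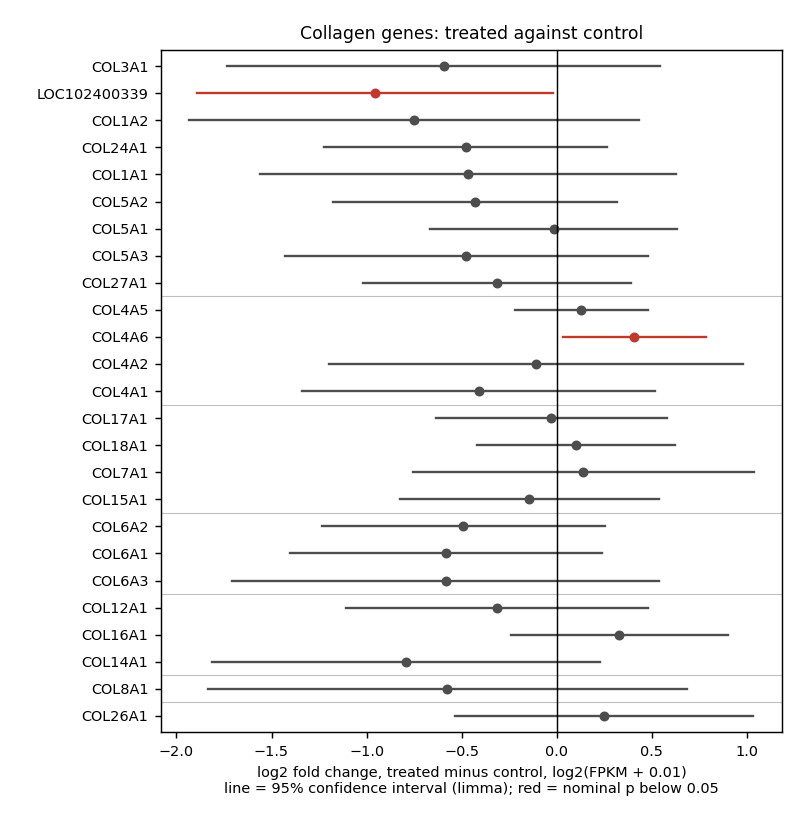
log2 fold change, treated minus control, of the 25 collagen genes tested (points) with 95% confidence intervals from limma (lines), by class; red marks a nominal p below 0.05. The intervals of COL4A6 (0.03 to 0.79) and LOC102400339 (-1.89 to -0.02) leave out 0 and the intervals of the other 23 genes include it.

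Among the fibrillar collagens, 9 of 12 members were tested and 1 passed at a nominal p below 0.05, LOC102400339. All 9 estimates lay below 0, from -0.96 to -0.02, with a median of -0.48 on the log2 scale. The lowest was that of LOC102400339, which is counted as fibrillar only through the study's name for it. Without it no fibrillar member passed, and the lowest estimate was -0.75, for COL1A2. COL1A1 and COL1A2 encode the chains of type I collagen, and COL3A1 the chain of type III collagen, which shares fibres with type I in soft tissue. COL3A1 was at 15.4 FPKM at the lowest, 27.3 FPKM at the median and 67.2 FPKM at the highest in control animals, and at 6.72, 22.6 and 73.2 FPKM in treated animals (log2 fold change -0.59, standard error 0.53, exact permutation p = 0.362). Both extremes of COL3A1 belonged to treated animals, replicate 1 with the lowest value and replicate 6 with the highest.

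COL1A2 was at 7.45, 18.5 and 36.2 FPKM (lowest, median and highest) in control animals and at 2.89, 12.3 and 36.6 FPKM in treated animals (log2 fold change -0.75, standard error 0.55, exact permutation p = 0.264). COL1A1 was at 3.10, 7.96 and 12.4 FPKM in control animals and at 1.74, 6.06 and 13.5 FPKM in treated animals (log2 fold change -0.47, standard error 0.51, exact permutation p = 0.426). For both genes 1 treated animal lay above and 2 lay below every control animal, the other treated animals lay within the control range, and again treated replicate 1 was lowest and treated replicate 6 highest. Across the 12 animals COL1A1, COL1A2 and COL3A1 varied 7.75-fold, 12.7-fold and 10.9-fold. Without treated replicate 1 their log2 fold changes were -0.17, -0.36 and -0.27, and without treated replicate 6 they were -0.76, -1.09 and -0.96.

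The other fibrillar members tested were the type V chains, which help to start fibrils, and types XXIV and XXVII. COL24A1 averaged 12.4 ± 3.5 FPKM (SD, n = 6) in control animals and 9.84 ± 5.24 FPKM (SD, n = 6) in treated animals, COL5A2 3.73 ± 1.42 and 2.996 ± 1.762 FPKM, and COL5A1 1.76 ± 0.70 and 1.72 ± 0.60 FPKM. COL5A3 and COL27A1 were at 1.005 FPKM or lower in every animal. None of these 5 genes passed at a nominal p below 0.05. Without treated replicate 6, the highest treated animal for both, COL5A2 (log2 fold change -0.68, standard error 0.30) and COL1A2 (log2 fold change -1.09, standard error 0.50) passed as lower. Leaving out that animal also raised the lower calls over all 12642 genes tested from 57 to 124. COL11A2, the last fibrillar member above 0, had 1 to 8 reads per animal.

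LOC102400339, counted as fibrillar only through the study's name for it, stood apart from COL1A1 and COL1A2. It was at 15.4 FPKM at the lowest, 25.5 FPKM at the median and 44.2 FPKM at the highest in control animals (mean 27.5 ± 10.8, SD, n = 6), and at 3.65, 14.4 and 33.3 FPKM in treated animals (mean 16.3 ± 10.3, SD, n = 6). Of the treated animals, 3 lay below every control animal, 2 control animals lay above every treated animal, and the groups overlapped. Treated animals were 1.94-fold lower (log2 fold change -0.96, standard error 0.44, nominal limma p = 0.0458, adjusted p = 0.9997), and the two-sided exact permutation p was 0.0736. Without any 1 of control replicates 1, 4, 5 and 6 or treated replicates 2, 3, 4 and 6 the nominal limma p rose to between 0.0503 and 0.101, with a log2 fold change between -1.02 and -0.58.

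COL1A1 has a row of its own in the table, so LOC102400339 and COL1A1 were kept as separate genes. The lengths implied by the FPKM values were 1422 bases for LOC102400339 and 4798 bases for COL1A1. LOC102400339 was not in the RefSeq gene table used here, which holds another assembly, and whether reads of COL1A1 could be counted on it was not tested. Its levels did not follow those of COL1A1. In treated replicate 6, with the highest COL1A1 (13.5 FPKM), LOC102400339 was at its lowest (3.65 FPKM), and in treated replicate 1, with the lowest COL1A1 (1.74 FPKM), it was at 33.3 FPKM, the highest of the treated animals.

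Over the 12 animals, log2 levels of COL1A1 and COL1A2 correlated with Pearson r = 0.932 (permutation p = 2e-05, adjusted p = 0.0001 over 15 pairs) and Spearman rho = 0.888 (permutation p = 0.00028), and without the 2 animals farthest from the median r was 0.858. COL1A1 and COL3A1 gave r = 0.926 (permutation p = 1e-05, the smallest the resampling can give, adjusted p = 7.5e-05) and rho = 0.895 (permutation p = 0.00027), with r = 0.842 without the 2 farthest animals. LOC102400339 and COL1A1 gave r = -0.343 (permutation p = 0.282, adjusted p = 0.350) and rho = -0.301 (permutation p = 0.342), with r = -0.02 without the 2 farthest animals. LOC102400339 and COL1A2 gave r = -0.309 (permutation p = 0.330) and rho = -0.189 (permutation p = 0.559). The ratio of LOC102400339 to COL1A2 within an animal ranged from 0.0997 to 11.5, whereas that of COL1A1 to COL1A2 ranged from 0.243 to 0.622.

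**Figure D4:**
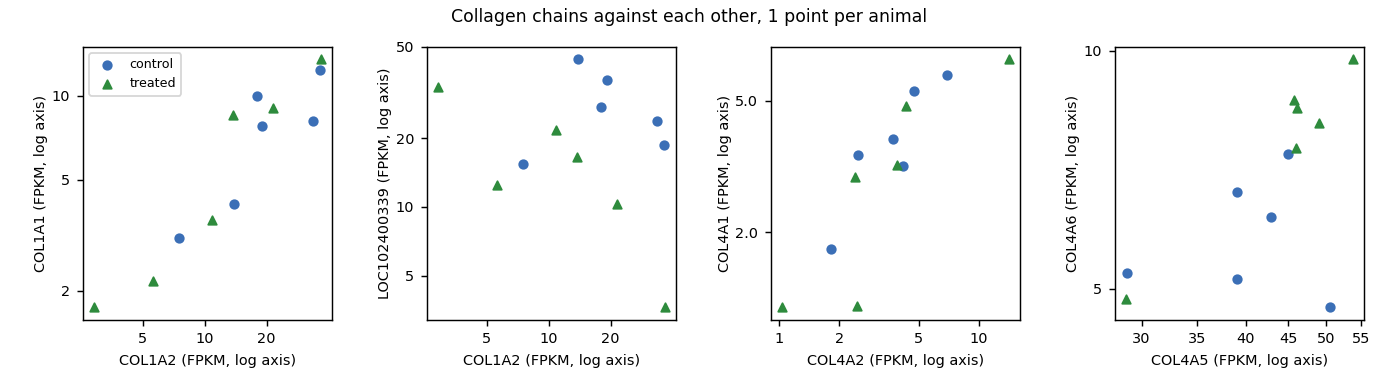
Levels of 4 pairs of collagen genes in FPKM on log axes, 1 point per animal (circles for control, triangles for treated). COL1A1 follows COL1A2 (r = 0.932) and COL4A1 follows COL4A2 (r = 0.857), LOC102400339 does not follow COL1A2 (r = -0.309), and for COL4A6 against COL4A5 (r = 0.640) 5 treated animals lie above every control animal on the COL4A6 axis.

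The basement membrane collagens of type IV form distinct networks. COL4A1 and COL4A2 chains assemble together in nearly all basement membranes, including those of vessels, whereas COL4A5 and COL4A6 form a network known from epithelial and smooth muscle basement membranes. Of 5 members, 4 were tested, 1 passed at a nominal p below 0.05 (COL4A6), 2 estimates lay above 0 and 2 below, and the median log2 fold change was 0.01. In these animals COL4A5 was the most abundant type IV chain. It was at 28.8 FPKM at the lowest, 41.01 FPKM at the median and 50.5 FPKM at the highest in control animals, and at 28.8, 46.01 and 53.8 FPKM in treated animals (log2 fold change 0.13, standard error 0.16, exact permutation p = 0.457).

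COL4A6 was at 4.74 FPKM at the lowest, 5.70 FPKM at the median and 7.39 FPKM at the highest in control animals (mean 5.89 ± 1.02, SD, n = 6), and at 4.85, 8.29 and 9.75 FPKM in treated animals (mean 7.89 ± 1.66, SD, n = 6). Of the treated animals, 5 of 6 lay above every control animal, and treated replicate 6 lay among the low control animals. Treated animals were 1.33-fold higher (log2 fold change 0.41, standard error 0.18, nominal limma p = 0.0360, adjusted p = 0.9997), and the two-sided exact permutation p was 0.0433. Without any 1 of control replicates 1, 4 and 6 or treated replicates 1 to 5 the nominal limma p lay between 0.0503 and 0.0852, with a log2 fold change between 0.34 and 0.42. Without treated replicate 6 the estimate was 0.54 on the log2 scale (standard error 0.14) and passed. The higher calls over all genes tested then rose from 100 to 201.

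COL4A6 and COL4A5 are neighbours in the RefSeq gene order, and their log2 levels gave r = 0.640 (permutation p = 0.0230, adjusted p = 0.0425) and rho = 0.552 (permutation p = 0.0675) over the 12 animals, and r = 0.427 without the 2 animals farthest from the median. Within the groups r was 0.114 over the control animals and 0.971 over the treated animals, and the difference was not tested. The ratio of COL4A6 to COL4A5 lay between 0.0940 and 0.189, and its mean log2 was 0.28 higher in treated animals (two-sided exact permutation p = 0.0606, adjusted p = 0.364 over 6 ratios). Without control replicate 2, 3 or 4 this difference was 0.33, 0.32 or 0.35 (two-sided exact permutation p = 0.0303, 0.0433 and 0.0152), and without control replicate 6 it was 0.16 (two-sided exact permutation p = 0.115).

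COL4A1 was at 1.78, 3.63 and 5.96 FPKM (lowest, median and highest) in control animals and at 1.18, 3.06 and 6.68 FPKM in treated animals (log2 fold change -0.41, standard error 0.43, exact permutation p = 0.409). COL4A2 was at 1.82, 3.94 and 6.90 FPKM in control animals and at 1.03, 3.17 and 14.1 FPKM in treated animals (log2 fold change -0.11, standard error 0.51, exact permutation p = 0.872). For both genes treated replicate 1 was lowest and treated replicate 6 highest, so that the treated range enclosed the control range. Their levels correlated with r = 0.857 (permutation p = 6e-05, adjusted p = 0.000225) and rho = 0.916 (permutation p = 3e-05), and with r = 0.872 without the 2 farthest animals. COL4A1 against COL4A5 gave r = -0.187 (permutation p = 0.574) and rho = -0.517 (permutation p = 0.0907).

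COL4A4, whose chain belongs to a further type IV network, stayed under the filter with 0 to 11 reads in control animals and 0 to 3 reads in treated animals, and 4 of the 6 control animals had a level above every treated animal. Fitted with no filter on low values, COL4A4 was at -1.11 on the log2 scale (standard error 0.67), and 0 of the 13 members that have reads but stayed under the filter passed limma at a nominal or an adjusted p below 0.05. COL4A3, listed as LOC102416276 and named through RefSeq, was not a member by the naming rule, and had 0 to 6 reads per animal.

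In the basement membrane zone, all 4 members were tested and none passed at a nominal p below 0.05, with log2 fold changes between -0.14 and 0.14. COL17A1 was at 57.5 FPKM at the lowest, 134 FPKM at the median and 158 FPKM at the highest in control animals, and at 53.2, 138 and 149 FPKM in treated animals (log2 fold change -0.03, standard error 0.28, exact permutation p = 0.801). In each group replicate 6 was far below the others, which lay at 129 FPKM or higher. COL7A1, the anchoring fibril collagen, was at 2.61, 9.58 and 12.8 FPKM in control animals and at 3.21, 9.27 and 18.4 FPKM in treated animals (log2 fold change 0.14, standard error 0.42, exact permutation p = 0.745), and replicate 6 was again the lowest of each group. COL18A1, the source of endostatin, was at 6.16, 14.97 and 16.3 FPKM in control animals and at 8.37, 15.7 and 16.6 FPKM in treated animals, with replicate 6 lowest in both.

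COL15A1, found around vessels and muscle, ran the other way. It averaged 3.04 ± 0.80 FPKM (SD, n = 6) in control animals and 3.03 ± 1.86 FPKM (SD, n = 6) in treated animals, and was highest in treated replicate 6 at 6.55 FPKM. The animals numbered 6 were also lowest in the summed epithelial markers of their groups, at 2658 FPKM (control, group median 4002) and 2462 FPKM (treated, group median 4180). The part of epithelial RNA in these low values was not tested. With both animals left out, an alternative chosen after seeing the data, COL4A5 (log2 fold change 0.32, standard error 0.12) and COL4A6 (log2 fold change 0.48, standard error 0.13) passed at a nominal limma p below 0.05 as higher in treated animals. LOC102400339 then no longer passed (log2 fold change -0.61, standard error 0.35). Over all 12642 genes tested, 203 passed as higher and 111 as lower in this fit, beside 100 and 57 with all animals.

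The type VI chains COL6A1, COL6A2 and COL6A3 build beaded filaments around cells. None passed at a nominal p below 0.05, and all 3 estimates lay between -0.59 and -0.49 on the log2 scale. COL6A2, the most abundant, was at 4.16, 6.41 and 8.13 FPKM (lowest, median and highest) in control animals and at 2.02, 4.42 and 8.27 FPKM in treated animals (standard error of the log2 fold change 0.35, exact permutation p = 0.255). The treated animals spanned a wider range that reached below every control animal in replicates 1, 2 and 5. COL6A1 gave r = 0.860 with COL6A2 (permutation p = 0.00013, rho = 0.909 with permutation p = 8e-05) and r = 0.861 with COL6A3 (permutation p = 0.00013, rho = 0.944 with permutation p = 2e-05), with r = 0.961 and 0.896 without the 2 farthest animals. COL6A5 had at most 1 read.

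Of the 10 FACIT members, 3 were tested and none passed at a nominal p below 0.05. COL12A1, the most abundant, was at 7.61, 16.7 and 25.8 FPKM in control animals and at 6.85, 11.8 and 23.4 FPKM in treated animals (log2 fold change -0.31, standard error 0.37, exact permutation p = 0.468), and the groups overlapped widely. COL16A1 averaged 13.5 ± 4.5 FPKM (SD, n = 6) in control animals and 16.03 ± 2.63 FPKM (SD, n = 6) in treated animals, and its lowest value, 4.91 FPKM, was in control replicate 6. COL14A1 averaged 1.71 ± 0.98 FPKM (SD, n = 6) in control animals and 1.11 ± 0.87 FPKM (SD, n = 6) in treated animals (log2 fold change -0.79, standard error 0.48, exact permutation p = 0.165). In 4 of 6 treated animals COL14A1 was below every control animal, and without treated replicate 4 or 5, its 2 highest treated animals, it passed as lower (log2 fold change -1.04 and -1.08). The lower calls over all genes tested then rose from 57 to 98 and 99.

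The remaining classes were low. COL8A1, a short-chain collagen of vessel walls, was at 0.218, 0.412 and 0.682 FPKM in control animals and at 0.0478, 0.340 and 0.742 FPKM in treated animals. COL23A1, a transmembrane collagen under the filter, had 2 to 19 reads per animal. COL26A1 was at 0.434, 1.18 and 1.38 FPKM in control animals and at 0.634, 1.202 and 2.63 FPKM in treated animals. Neither COL8A1 nor COL26A1 passed at a nominal p below 0.05. COL22A1, a collagen of tissue junctions, had 26 reads in treated replicate 5 and none in the other 11 animals.

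Fibrillar and basement membrane collagens were set side by side within animals, where scaling between libraries drops out. The ratio of COL3A1 to COL4A1 ranged from 3.35 to 18.8, and its mean log2 was 0.18 lower in treated animals, with overlapping groups and a two-sided exact permutation p of 0.695. COL3A1 and COL4A1 correlated with r = 0.687 (permutation p = 0.0139, adjusted p = 0.0298) and rho = 0.741 (permutation p = 0.00784), with r = 0.597 without the 2 farthest animals. COL1A1 and COL4A6 gave r = -0.322 (permutation p = 0.303) and rho = -0.266 (permutation p = 0.405). COL4A6 to COL4A1, a ratio chosen after the values were seen, was 0.82 higher in treated animals on the log2 scale, with a two-sided exact permutation p of 0.171 (adjusted p = 0.480 over 6 ratios).

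The members were then set beside marker scores of 3 tissues, each the mean standardised log2 level of a marker list without collagens. With 12 animals and 75 relations, 10 members correlated positively with the fibroblast score at an adjusted permutation p of Pearson's r below 0.05 and 11 correlated negatively with the epithelium score. By Spearman's rho, 8 of these 10 and 7 of these 11 passed too. With the fibroblast score 1 relation was negative past the threshold by both measures, that of COL7A1 (r = -0.662, permutation p = 0.0182, rho = -0.832 with permutation p = 0.0014). With the smooth muscle score 10 relations were positive by Pearson's r and 2 of them by Spearman's rho as well (COL12A1 and COL14A1), and COL3A1 (r = 0.687, permutation p = 0.0132, rho = 0.524 with permutation p = 0.0847) gave r = 0.281 without the 2 farthest animals. Those with the epithelium score included COL3A1 (r = -0.916, permutation p = 1e-05, rho = -0.874 with permutation p = 0.00043), COL1A2 (r = -0.892, permutation p = 3e-05, rho = -0.832 with permutation p = 0.00136) and COL6A1 (r = -0.823, permutation p = 0.00263, rho = -0.790 with permutation p = 0.00331). Without the 2 farthest animals these r were -0.866, -0.810 and -0.695. Only COL17A1 (r = 0.747, permutation p = 0.00108, rho = 0.860 with permutation p = 0.00077) and COL7A1 (r = 0.866, permutation p = 0.00021, rho = 0.762 with permutation p = 0.00560) correlated positively with it at that threshold, and without the 2 farthest animals both gave r = 0.768. Within the control group r with this score was -0.897 for COL3A1 and 0.834 for COL7A1, and within the treated group -0.944 and 0.939.

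COL4A6 gave r = 0.503 with the epithelium score (permutation p = 0.0946, rho = 0.392 with permutation p = 0.211), and LOC102400339 gave r = 0.541 (permutation p = 0.0766, rho = 0.217). LOC102400339 gave r = -0.141 with the fibroblast score (permutation p = 0.667), whereas COL1A2 gave r = 0.852 (permutation p = 0.00043, rho = 0.797 with permutation p = 0.00267). COL4A6 against COL17A1 gave r = 0.604 (permutation p = 0.0255) but rho = 0.343 (permutation p = 0.277), and r was -0.105 without the 2 farthest animals, so that this relation rested on them.

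**Figure D5:**
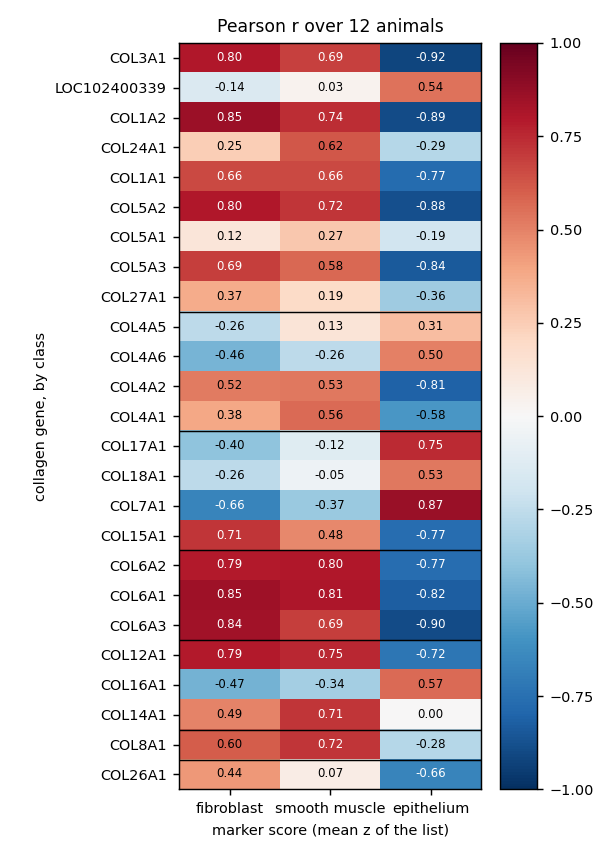
Pearson r over the 12 animals between the log2 level of each collagen gene tested (rows, by class) and the marker scores of fibroblasts, smooth muscle and stratified squamous epithelium (columns), from blue for -1 to red for 1. COL3A1 (-0.916), COL6A3 (-0.898) and COL1A2 (-0.892) are lowest against the epithelium score, COL7A1 (0.866) and COL17A1 (0.747) highest, and LOC102400339 is at -0.141 against the fibroblast score.

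The marker lists were also compared between groups. The summed smooth muscle markers were 28.9 to 50.02 FPKM in control animals and 16.7 to 41.58 FPKM in treated animals (median log2 fold change -0.72 over 7 tested genes, 1 with a nominal p below 0.05, lower), and the summed fibroblast markers 28.2 to 192 FPKM and 15.7 to 108 FPKM (median log2 fold change -0.67 over 8 tested genes, 0 past that threshold). The epithelium list had a median log2 fold change of 0.07 over 9 tested genes. With the smooth muscle score as a covariate, 14 of the 25 members changed the sign of their log2 fold change, 18 estimates lay above 0 and the median was 0.11. COL1A1, COL1A2 and COL3A1 were then at 0.24, 0.08 and 0.16 on the log2 scale. COL4A6 was at 0.43, no longer past the nominal threshold, and LOC102400339 at -1.24, still past it. Without the 2 farthest animals r with this score fell from 0.663 to 0.222 for COL1A1. It fell from 0.738 to 0.331 for COL1A2 and from 0.687 to 0.281 for COL3A1. COL8A1, COL12A1 and COL14A1 stayed at 0.613 or higher. The smooth muscle markers were themselves lower in treated animals, so this covariate overlaps with the diet contrast. Whether muscle content accounts for the sign changes was not tested. With the epithelium score as a covariate instead, an alternative chosen after seeing the data, 3 members changed sign, 18 estimates lay below 0 and the median was -0.28, with COL1A1, COL1A2 and COL3A1 at -0.28, -0.51 and -0.36 and both nominal calls kept. In bulk tissue, fewer cells of a type and less RNA per cell cannot be told apart.

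Genes that modify, secrete, cross-link, bind or degrade collagen were taken from a list of 65, of which 63 were in the table and 49 were tested. At a nominal p below 0.05, 1 was higher in treated animals (0.791% of all genes tested) and 0 were lower (0.451% of all genes tested), a count near that background. Of the estimates 18 lay above 0 and 31 below, and the median log2 fold change was -0.06. The higher gene was TNXB, which encodes tenascin-X, a glycoprotein that binds collagen fibrils. The study had already called TNXB as higher from these same animals. TNXB was at 1.32 FPKM at the lowest, 1.90 FPKM at the median and 3.89 FPKM at the highest in control animals, and at 2.26, 3.04 and 5.04 FPKM in treated animals. Only 1 treated animal lay above every control animal. Treated animals were higher by 0.62 on the log2 scale (standard error 0.28, nominal limma p = 0.0461, adjusted p = 0.9997), and the two-sided exact permutation p was 0.0671.

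The TNXB call was lost without any 1 of control replicates 2, 4, 5 and 6 or treated replicates 3, 4 and 6 (log2 fold change between 0.48 and 0.62, nominal limma p between 0.0658 and 0.113), and with median ratio scaling or no filter on low values.

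The most abundant gene of each role did not pass. P4HB, a subunit of the prolyl hydroxylase that modifies collagen chains, was at 324, 388 and 447 FPKM (lowest, median and highest) in control animals and at 286, 339 and 406 FPKM in treated animals (log2 fold change -0.21, standard error 0.12, exact permutation p = 0.0606). ITGB1, the beta subunit of the collagen-binding integrins, averaged 59.3 ± 8.0 FPKM (SD, n = 6) in control animals and 53.1 ± 7.1 FPKM (SD, n = 6) in treated animals. MMP14, a membrane collagenase, averaged 29.4 ± 5.1 and 27.2 ± 3.5 FPKM, and LUM, a proteoglycan of collagen fibrils that is also on the fibroblast list, 34.8 ± 31.7 and 19.0 ± 14.99 FPKM. BMP1, which cuts the carboxyl propeptide of fibrillar procollagens, averaged 5.04 ± 0.82 and 5.21 ± 1.68 FPKM.

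PXDN, the peroxidase that cross-links type IV collagen, averaged 0.966 ± 0.416 FPKM (SD, n = 6) in control animals and 1.38 ± 1.29 FPKM (SD, n = 6) in treated animals, and SMAD7, an inhibitor of TGF-beta signalling, 1.99 ± 0.27 and 2.12 ± 0.63 FPKM. By role, all 14 tested hydroxylases and chaperones, 7 propeptide proteinases and enhancers, 2 cross-linking genes, 8 genes of degradation, 8 receptors and 4 regulators stayed above a nominal limma p of 0.05, and TNXB was the 1 of 6 fibril partners that passed. TLL2, a propeptide proteinase picked after its values were seen, had a limma p of 0.219 but an unadjusted two-sided exact permutation p of 0.0368. No other of the 49 processing genes tested had a permutation p below 0.05, and chance alone can give such a count. It averaged 1.125 ± 0.102 FPKM (SD, n = 6) in control animals and 0.958 ± 0.134 FPKM (SD, n = 6) in treated animals. Of the treated animals, 5 lay below every control animal.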

How the data were processed

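Total RNA of the ruminal wall of 12 buffaloes (6 control, 6 treated; 1 library per animal) was sequenced by the authors. They trimmed reads with Trimmomatic 0.39, checked them with FastQC 0.11.5, aligned them to UOA_WB_1 with STAR 2.5.2b and counted them by strand with featureCounts 2.0.0 (minimum mapping quality 30). The deposited values were FPKM per gene. How the FPKM were computed is not given in the sources used here. Of 16 value columns, 12 matched a sample and 4 were not used.

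Whole reads and gene lengths were worked out from the FPKM steps: all 22972 genes above 0 came out as whole reads within 0.01. The smallest length that fitted was taken. A gene with reads in few animals therefore fits nearly always, and its count is the smallest that fits. Among the members, COL6A5, COL9A1, COL9A3, COL10A1, COL22A1 and COL28A1 had reads in 1 animal only. The study filtered on normalised reads and called genes at a nominal p below 0.05. The same filter left 12642 genes here. limma 3.58.1 (lmFit, eBayes with trend, R 4.3.3) was fitted on log2(FPKM + 0.01) without covariates. A count of 3 reads was taken as the floor. Single genes and ratios had two-sided exact permutation tests over 924 assignments (smallest possible p = 0.002165), and correlations 100000 resamples. The fit was also run on simulated counts drawn separately for each gene. These held no variation shared between the genes of an animal, and no result here rests on them. Scripts ran in Python 3.11.15.

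The members, classes, processing list and marker lists were chosen with earlier results of these data known. All members are accounted for. Values by animal are given for COL1A1, LOC102400339, COL1A2, COL3A1, COL4A1, COL4A2, COL4A5, COL4A6, COL7A1 and COL17A1, the most abundant member of each class, and genes of a nominal p below 0.05, with the most abundant processing gene of each role. COL15A1, COL18A1, COL16A1, COL14A1, COL5A2, COL24A1, TLL2 and members under the filter were added after their values were seen. Of the members, 41 matched the RefSeq table by gene ID. RefSeq names and gene order came from another assembly, so no coordinates are given. Alternatives were other pseudocounts, filters, scaling, limma-voom, marker scores as covariates, a replicate block and each animal left out. Each animal was a separate biological replicate.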

Additional observations from a re-analysis of the deposited data

Results flagged for a closer look

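On the log2(FPKM + 0.01) scale, in 9 of 50 groups of 6 animals (25 members in each diet), the lowest animal lay further from its neighbour, as a share of the group's range, than Dixon's 95% critical value allows. Chance flags about 1 in 20 groups, and members share animals. COL17A1 was at 57.5 FPKM in control replicate 6, where the others lay from 129 to 158 FPKM, and at 53.2 FPKM in treated replicate 6, where the others lay from 133 to 149 FPKM. COL18A1 was at 6.16 FPKM in control replicate 6 and at 8.37 FPKM in treated replicate 6. COL7A1 was at 2.61 FPKM and COL16A1 at 4.91 FPKM in control replicate 6. COL4A5 was at 28.8 FPKM and COL4A6 at 4.85 FPKM in treated replicate 6. COL26A1 was at 0.434 FPKM in control replicate 2, where the others lay from 0.960 to 1.38 FPKM. On the FPKM scale itself 5 of these 9 passed and 4 did not (COL18A1 and COL4A6 in treated replicate 6, COL7A1 in control replicate 6 and COL26A1), and 2 high values passed, COL4A2 at 14.1 FPKM in treated replicate 6 and COL6A1 at 10.9 FPKM in control replicate 3. On the log2 scale 8 of the 9 low values belonged to control replicate 6 and treated replicate 6, which were also lowest in the summed epithelial markers of their groups, and the part of epithelial RNA in them was not tested.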

How the results depend on the processing

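Of 1137 values recomputed under alternatives, 979 kept their direction and side of the threshold or stayed close. COL4A6 and LOC102400339 kept their calls with pseudocounts of 0.1 and 1, no filter, a filter of 0.1 FPKM in at least 6 animals, median ratio scaling, limma-voom and robust empirical Bayes. Among all genes, 271 passed at a nominal p below 0.05 as higher and 291 as lower with no filter, 168 and 133 with the filter of 0.1 FPKM, 151 and 111 with the epithelium score as a covariate, and 203 and 111 without both animals numbered 6. Members higher were 0 with the smooth muscle score and 2 without both animals numbered 6, where members lower were 0.

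Processing genes higher were 0 with no filter or median ratio scaling and 2 with the smooth muscle score (TNXB and MMP13, 1 lower, ITGA2), and 2 were lower with the epithelium score (ITGA1 and ITGA2) or without both animals numbered 6 (ITGA1 and P4HB). The smooth muscle score reversed the log2 fold changes of COL3A1 (0.16), COL1A2 (0.08), COL1A1 (0.24), COL5A1 (0.16), COL5A2 (0.056), COL12A1 (0.29), COL7A1 (-0.20), COL4A1 (0.064), COL4A2 (0.52), COL15A1 (0.17), COL6A1 (0.039), COL6A2 (0.062), COL6A3 (0.15) and COL8A1 (0.23), and the epithelium score those of COL7A1 (-0.031), COL4A2 (0.085) and COL5A1 (0.0085). Without both animals numbered 6 the log2 ratio of LOC102400339 to COL1A2 was 0.32 and that of COL4A6 to COL4A1 was 1.19 (two-sided exact permutation p = 0.0476). By whole reads the FACIT share was 12.4% and that of the other class 0.168%. The causes were not tested.

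Leaving out 1 animal gave 80 to 201 genes higher and 47 to 124 lower, with 201 and 124 without treated replicate 6 and 86, 98 and 99 lower without control replicate 3 and treated replicates 4 and 5. Members higher ranged from 0 to 1 and lower from 0 to 2, processing genes from 0 to 2 in each direction. log2 fold changes ranged from -0.40 to 0.0215 for COL15A1, -0.24 to 0.20 for COL17A1, -0.12 to 0.25 for COL18A1, -0.52 to 0.23 for COL4A2, -0.18 to 0.17 for COL5A1 and -0.18 to 0.43 for COL7A1. The log2 ratio of LOC102400339 to COL1A2 ranged from -0.86 to 0.51, COL3A1 to COL4A1 from -0.40 to 0.0497, COL4A6 to COL4A1, chosen after its values were seen, from 0.55 to 1.21 (the latter without treated replicate 6) and COL4A6 to COL4A5 from 0.16 to 0.35. The correlation of COL4A1 and COL4A5 ranged from -0.490 to 0.076.

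The groups share replicate numbers in the sample descriptions, whereas the sample titles number the animals differently, and no label says that a number marks a shared litter, batch or day. Same-numbered animals gave correlations of their deviations from -0.01 to 0.416 (mean 0.213, beside -0.04 for other numbers), and since not every pair was above 0.1 the animals were treated as unpaired. Deviations from a group mean sum to 0 over its animals. The mean for other numbers is thus nearly set by that for the same number and is no separate baseline. With the replicate block, 198 genes were higher and 124 lower, both members kept their calls, and processing genes higher were 2 (TNXB and P3H2) and lower 1 (ITGA1). Of the 12 animals, 8 correlated best with their own number, which is a hint from the data and not from the design. Of the 18 members under the filter, 5 had no reads, and the other 13 were fitted only with no filter.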

Other observations

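The summed endothelium markers lay between 7.09 and 38.7 FPKM, with a median log2 fold change of -0.11 over 7 tested genes, and the immune markers between 10.8 and 36.1 FPKM, with -0.20 over 4 tested genes. FABP4 set nearly the whole adipocyte sum of 37.7 to 246 FPKM, and ADIPOQ and LEP were at 0 in every animal. Of the enteric neuron and glia list ELAVL4 and SOX10 were at 0, and of the serosal list WT1 was at 0 and MSLN was not among the gene names. The chondrocyte sum was at most 0.274 FPKM. None of these lists had a gene with a nominal p below 0.05.

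In the gene order of the RefSeq table, 6 pairs of collagen genes were direct neighbours, among them COL6A1 with COL6A2, COL4A2 with COL4A1, COL5A2 with COL3A1 and COL4A5 with COL4A6. COL3A1 and COL5A2, chosen after their values were seen, gave r = 0.943 over the 12 animals (permutation p = 1e-05, rho = 0.902 with permutation p = 0.00022), with r = 0.886 without the 2 farthest animals. COL5A1 and COL5A2, whose chains share a trimer but which are not neighbours, gave r = 0.420 (permutation p = 0.174, adjusted p = 0.261, rho = 0.392 with permutation p = 0.210). The difference between these correlations was not tested.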
